A study of Mus musculus with 6 samples.

Results

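T cell receptor genes were examined in bulk RNA-seq of inguinal white adipose tissue (IWAT). The members were selected on their names and on their own counts. They were all entries of the expression table named as a variable (V), joining (J), or constant (C) gene of the T cell receptor alpha, beta, gamma, or delta chain that had at least 1 count in any library, which gave 155 of 55491 entries. Of these, 118 lay in the alpha/delta locus, 26 in the beta locus, and 11 in the gamma locus. The tissue came from 4-week-old male mice on chow, with 3 Ebf2+/+ (wild-type) mice and 3 Ebf2 E165X/+ mice, and each mouse gave 1 library. The Ebf2 E165X/+ mice carry, on 1 of their copies of Ebf2, the premature stop codon E165X, as a whole-body knock-in made with CRISPR/Cas9. The labels give C57BL/6J as the strain of all mice of both genotypes, and the study's methods name the same background for the knock-in. The study's supplement states that founder zygotes came from B6SJLF1 hybrid mice and that founders were bred to C57BL/6J. The number of generations is not given in the sources used here. The labels do not say which mice shared a litter. The comparison of interest was between loci, because Ebf2 lies on the same chromosome as the alpha/delta locus, while the beta and gamma loci lie elsewhere.

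Each T cell receptor chain is made from a locus in which recombination joins a V and a J segment, with a D segment between them in the beta and delta chains, and the joined exon is spliced to a C gene. The alpha and beta chains form the receptor of most T cells, and the gamma and delta chains form that of a smaller class common in barrier and adipose tissues. The delta genes sit inside the alpha locus, so that a cell that joins an alpha V to an alpha J removes the delta genes between them. The surface receptor is completed by the CD3 chains, which carry the signal. Inguinal fat contains a lymph node, which is rich in naive T and B cells.

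In GRCm38, the alpha/delta locus spanned chr14:52427928-54224206, and Ebf2 lay at chr14:67233292-67430918, which is 13 Mb further along the chromosome. The beta locus spanned chr6:40891229-41558452 and the gamma locus chr13:19178024-19352756. The table held 266 entries with T cell receptor names, and 111 of them had no count in any library. These included all 80 J segments, whose annotated transcripts are at most 72 bases long, and 31 V segments. None of the 818 other genes in the table with transcripts of 72 bases or shorter had a count either, so the J segments shared their zeros with all such short entries. The members therefore comprised 147 V segments (112 Trav, 4 Trdv, 24 Trbv, and 7 Trgv) and all 8 C genes (Trac, Trdc, Trbc1, Trbc2, and Trgc1 to Trgc4). At the edge of the rule, Trav11n, Trav23, Trbv22, and Trgv7 never exceeded 1 count in a library, and the next entries outside it were at 0. Of the 155 members, 104 had at least 30 counts over the 6 libraries, and 7 were annotated as pseudogenes.

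Many members are near copies of each other, which limits how well a short read can be assigned to any of them. The sequences below show this for members that the results turn on. They are exonic, from GENCODE M21 transcripts on GRCm38, on the plus strand, and the capitals mark the bases at which the sequences of a set differ. Trbc1 (chr6:41538218-41539881) and Trbc2 (chr6:41546730-41548352), the alternative constant genes of the beta chain, were 84.2% identical over the 692 bases of the shorter transcript, counting substitutions and gaps, and differed at 5 of the 120 shown.
Trbc1 (transcript bases 288 to 407): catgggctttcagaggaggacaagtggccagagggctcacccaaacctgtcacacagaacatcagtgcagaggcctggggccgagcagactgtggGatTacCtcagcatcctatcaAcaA
Trbc2 (transcript bases 288 to 407): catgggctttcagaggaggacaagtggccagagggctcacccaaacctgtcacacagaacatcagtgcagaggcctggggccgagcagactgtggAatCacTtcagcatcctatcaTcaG
Trav6n-6 (chr14:53132679-53133137) differed from Trav6-6 (chr14:53516929-53517366) at 9 of 344 bases, and at 6 of the 120 shown, while Trav6d-6 had the same bases as Trav6-6.
Trav6n-6 (transcript bases 51 to 170): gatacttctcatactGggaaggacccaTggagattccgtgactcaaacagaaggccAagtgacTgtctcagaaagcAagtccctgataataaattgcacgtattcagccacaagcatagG
Trav6-6 (transcript bases 30 to 149): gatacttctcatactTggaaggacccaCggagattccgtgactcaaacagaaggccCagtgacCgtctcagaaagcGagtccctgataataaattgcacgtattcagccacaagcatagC
Trav14-2 (chr14:53640701-53641225) differed from Trav14d-2 (chr14:52948568-52949169) and the identical Trav14n-2 at 9 of 387 bases.
Trav14-2 (transcript bases 205 to 324): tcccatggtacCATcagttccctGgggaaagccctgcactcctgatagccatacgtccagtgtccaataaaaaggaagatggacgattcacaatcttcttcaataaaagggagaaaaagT
Trav14d-2 (transcript bases 282 to 401): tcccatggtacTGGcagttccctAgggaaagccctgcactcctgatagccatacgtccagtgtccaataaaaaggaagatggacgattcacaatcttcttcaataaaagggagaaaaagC
The 3 members of the Trav16 family, Trav16 (chr14:53743104-53743705), Trav16d-dv11 (chr14:53047287-53047821), and Trav16n (chr14:53351028-53351621), differed at 12 of 353 bases.
Trav16 (transcript bases 272 to 391): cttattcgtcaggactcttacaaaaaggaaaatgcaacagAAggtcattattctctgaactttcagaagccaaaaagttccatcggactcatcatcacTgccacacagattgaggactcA
Trav16d-dv11 (transcript bases 205 to 324): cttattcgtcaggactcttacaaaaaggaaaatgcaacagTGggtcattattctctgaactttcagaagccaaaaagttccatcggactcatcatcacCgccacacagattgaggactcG
Trav16n (transcript bases 264 to 383): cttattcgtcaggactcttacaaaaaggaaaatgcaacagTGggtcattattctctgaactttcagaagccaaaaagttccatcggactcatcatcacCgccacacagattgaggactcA
Trav8d-1 (chr14:52778447-52778995) and Trav8-1 (chr14:53469756-53470232) differed by 12 bases over the 328 of the shorter transcript, gaps included, and at 1 of the 120 shown.
Trav8d-1 (transcript bases 147 to 266): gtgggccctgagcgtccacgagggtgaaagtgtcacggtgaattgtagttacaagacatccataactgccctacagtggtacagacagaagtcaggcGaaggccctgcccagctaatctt
Trav8-1 (transcript bases 75 to 194): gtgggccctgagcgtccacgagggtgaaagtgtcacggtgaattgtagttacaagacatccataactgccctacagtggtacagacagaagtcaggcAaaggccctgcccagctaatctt
Across the 112 alpha V segments, the closest other V segment was at least 99% identical for 53 and at least 95% identical for 97, and the median identity was 98.5%. None of the 24 beta, 4 delta, or 7 gamma V segments had a neighbor at 95% or above. Counts of single alpha V segments are therefore uncertain, because the authors' program had to divide reads among copies.

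The libraries held between 106820505 and 135039488 counts, and the members took 0.0101% to 0.0151% of them, 95083 counts in all. Of these member counts, 61.0% fell on the beta locus, 35.6% on the alpha/delta locus, and 3233 counts on the gamma locus. Counts of the targeted gene were lower in the Ebf2 E165X/+ mice, and such counts do not separate its alleles. Ebf2, which encodes a transcription factor of mesenchymal tissues, had 4603, 4357, and 4611 counts in Ebf2+/+ mice and 2635, 2863, and 2697 in Ebf2 E165X/+ mice (log2 fold change -0.81, SE 0.076, adjusted p = 0.0596 in edgeR and 1.23e-13 in DESeq2). The libraries were not alike in their cell content. Ebf2+/+ replicate 1 had the fewest lymphocyte transcripts, with the summed B cell markers at 912 CPM, that is, counts scaled to the library size, against 1355 to 1715 in the other libraries. Ebf2 E165X/+ replicate 3 had by far the most skeletal muscle transcripts, with 39191 CPM over 8 muscle markers against 669 to 6790 elsewhere, and the lowest sum of 8 adipocyte markers, 10266 CPM against 14161 to 17789. In bulk tissue, fewer cells of a type and less RNA per cell cannot be told apart.

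Among the constant genes, the alpha chain stood apart from the beta chain. Trac (ENSMUSG00000076928), the only constant gene of the alpha chain, had 3533, 4365, and 4971 counts in Ebf2+/+ and 3505, 3635, and 3893 in Ebf2 E165X/+ mice. Scaled to library size, this was 37.0 ± 6.59 CPM (SD, n = 3) in Ebf2+/+ and 29.9 ± 0.716 CPM (SD, n = 3) in Ebf2 E165X/+. The 3 Ebf2 E165X/+ mice were close together, 2 of the Ebf2+/+ mice were above them, and the groups overlapped because Ebf2+/+ replicate 1 was as low. The log2 fold change was -0.31 (SE 0.13), with an unadjusted p = 0.0472 and an adjusted p = 0.783 in edgeR, so Trac did not pass the test. Trbc1 had 1963, 2039, and 2849 counts in Ebf2+/+ and 2436, 3064, and 3003 in Ebf2 E165X/+ mice (log2 fold change 0.23, SE 0.13, edgeR adjusted p = 0.783), and the groups overlapped. Trbc2 had 3645, 4269, and 5114 counts in Ebf2+/+ and 4930, 5669, and 5688 in Ebf2 E165X/+ mice (log2 fold change 0.24, SE 0.12, edgeR adjusted p = 0.783). In CPM, every Ebf2 E165X/+ mouse was above every Ebf2+/+ mouse for Trbc2. The beta constant genes were thus higher, and Trac lower, in the Ebf2 E165X/+ means, with no call for any of these genes. Without Ebf2+/+ replicate 1, the log2 fold changes were -0.46 for Trac, 0.11 for Trbc1, and 0.095 for Trbc2.

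**Figure D1:**
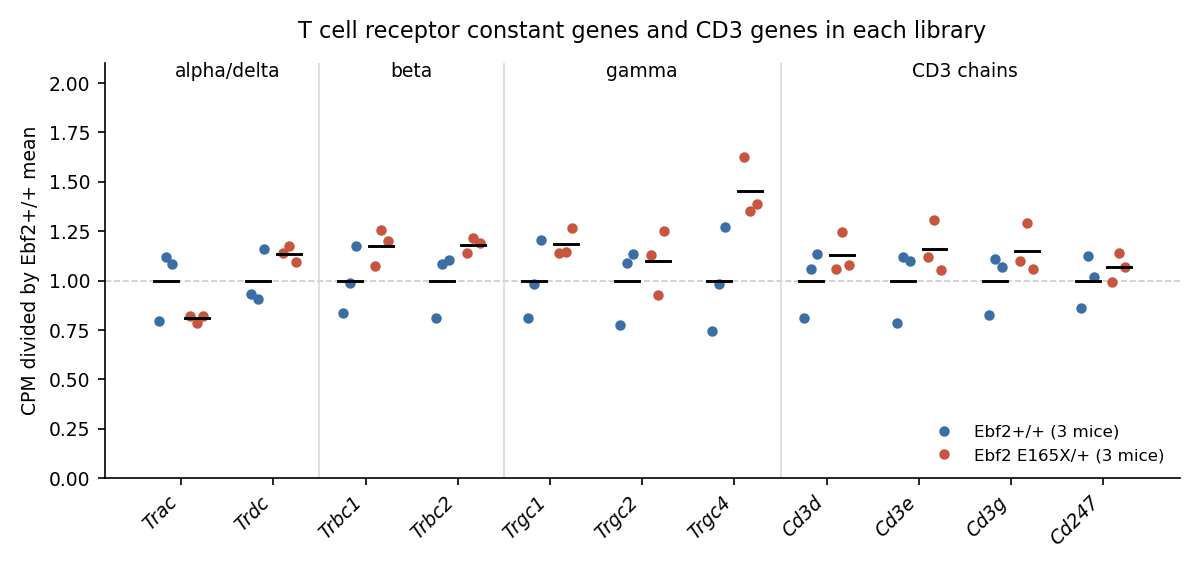
CPM of each T cell receptor constant gene and CD3 gene in the 6 libraries, divided by the mean of the 3 Ebf2+/+ libraries (vertical axis, no unit). Points are mice and black bars are group means. Trac is the only gene drawn whose Ebf2 E165X/+ mean is below the Ebf2+/+ mean, and Trgc3, with 9 counts in all, is not drawn.

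The alpha and beta chains were also compared with each other within each library, which removes the scaling to library size. The ratio of Trac counts to the summed counts of Trbc1 and Trbc2 was 0.630, 0.692, and 0.624 in Ebf2+/+ mice and 0.476, 0.416, and 0.448 in Ebf2 E165X/+ mice. All 3 Ebf2 E165X/+ values were below all 3 Ebf2+/+ values. The means were 0.649 ± 0.0376 and 0.447 ± 0.0298 (SD, n = 3 each), a log2 difference of -0.54. A two-sided exact permutation test of the log2 ratios gave p = 0.1, which is the smallest value that 3 against 3 mice can give, so this design could not reach 0.05. Leaving out each mouse in turn gave log2 differences of -0.59 to -0.49. Trac was also divided by the summed counts of the CD3 genes Cd3d, Cd3e, Cd3g, and Cd247. This ratio was 0.315, 0.330, and 0.326 in Ebf2+/+ and 0.248, 0.204, and 0.250 in Ebf2 E165X/+ mice, again with no overlap. On this scale, 8.31% of all genes tested were lower and 1.38% higher without overlap. The beta constant genes relative to CD3 were 0.500 ± 0.0229 in Ebf2+/+ and 0.523 ± 0.0344 in Ebf2 E165X/+ mice (SD, n = 3 each), and these groups overlapped. Ebf2+/+ replicate 1, the Ebf2+/+ mouse with the lowest Trac CPM, had a ratio to the beta constant genes between those of the other Ebf2+/+ mice.

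**Figure D2:**
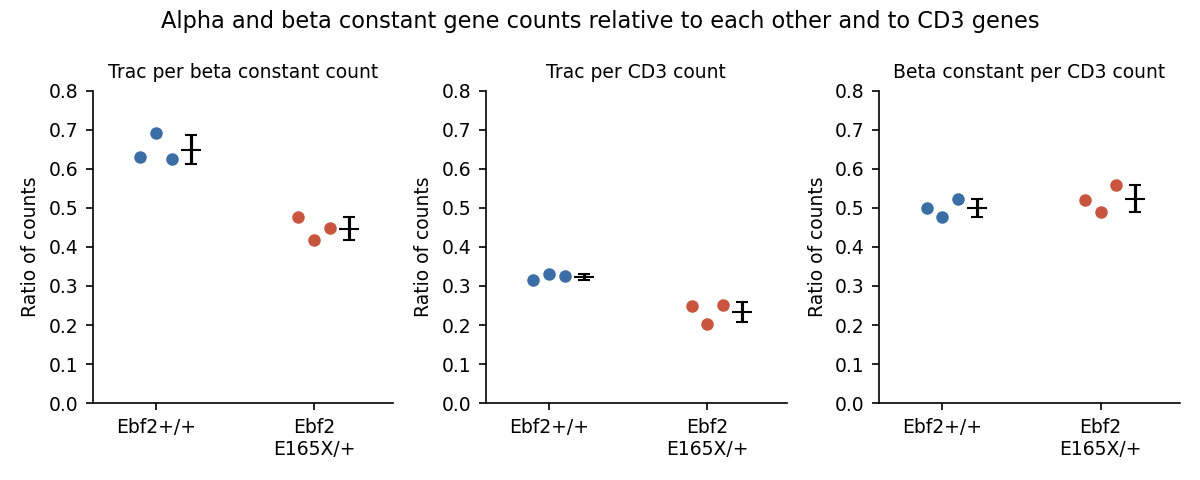
Ratios of counts within each library (vertical axes, no unit) for Trac over Trbc1 plus Trbc2, Trac over the CD3 genes Cd3d, Cd3e, Cd3g, and Cd247, and Trbc1 plus Trbc2 over these CD3 genes. Colored points are mice, and black marks are the mean and SD of 3 mice. The genotypes separate in the first and second panels and overlap in the third.

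Trdc, the delta constant gene, lies in the same locus as Trac and had a higher mean in Ebf2 E165X/+ mice. It had 322, 275, and 412 counts in Ebf2+/+ and 378, 421, and 403 in Ebf2 E165X/+ mice (log2 fold change 0.18, SE 0.17, edgeR adjusted p = 0.783, and from 0.11 without Ebf2+/+ replicate 2 to 0.28 without Ebf2+/+ replicate 3), and relative to CD3 its means were 0.0255 and 0.0254. Per kilobase of annotated transcript, Trdc was at 0.743 CPM and Trac at 39.5 CPM in Ebf2+/+ mice, a scale that presumes reads along the whole transcript. Of the gamma constant genes, Trgc1 had 152, 162, and 233 counts in Ebf2+/+ and 206, 223, and 253 in Ebf2 E165X/+ mice (log2 fold change 0.24, SE 0.21). Trgc2 had 119, 147, and 180 against 167, 148, and 205 counts (0.14, SE 0.23). Trgc4 had 70, 81, and 123 against 147, 132, and 139 counts (0.54, SE 0.25), and its groups did not overlap. Trgc3 held 9 counts in all, 1, 1, and 5 against 0, 1, and 1. Without Ebf2+/+ replicate 1, the values of Trgc1, Trgc2, and Trgc4 were 0.099, -0.028, and 0.36. The edgeR adjusted p of these gamma genes was between 0.783 and 0.887. Trgc1 and Trgc3 were 96.9% identical over the shorter transcript, so their reads are hard to separate. Summed over the gamma constant genes, the ratio to CD3 was 0.0318 ± 0.00319 in Ebf2+/+ and 0.0345 ± 0.00545 in Ebf2 E165X/+ mice (SD, n = 3 each), with overlap.

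The V segments differed between loci in how widely their fold changes were spread. In edgeR, no member met the call (adjusted p under 0.05 and linear fold above 1.5), against 0.00918% of all 32664 genes tested (3 genes), and the smallest adjusted p of a member was 0.497. DESeq2 also called no member, against 0.61% of the 16078 genes to which it gave an adjusted p, and it gave none to any alpha V segment. Without its filter on low means DESeq2 again called no member, as did limma-voom. At an unadjusted p under 0.05 in edgeR, 9 of 118 members of the alpha/delta locus had higher and 7 had lower values in the knock-in mice (13.6% together), against 0 of 37 members of the beta and gamma loci. Of all genes tested, 1.68% were higher and 3.09% lower by this rule. At an unadjusted p under 0.05, DESeq2 gave 13 members of the alpha/delta locus (background 4.87% of genes) and limma-voom 19 (5.38%). In CPM, the genotypes did not overlap for 12 higher and 17 lower members of the alpha/delta locus, against backgrounds of 5.09% higher and 5.75% lower, and for 2 higher and 1 lower of the beta and gamma loci. Without Ebf2 E165X/+ replicate 3, the library rich in muscle transcripts, 20 members of the alpha/delta locus and 0 of the beta and gamma loci had an unadjusted p under 0.05, and in that fit so did 5.33% of all genes, against 4.77% with all 6 libraries.

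Restricted to segments with at least 30 counts, 9 of 70 alpha V segments were higher and 12 lower without overlap, against 6.35% and 6.62% of the 22773 genes with as many counts. By an unadjusted p under 0.05 in edgeR, 8 were higher and 5 lower, against 2.02% and 3.93%. None of the 21 beta V segments with at least 30 counts met either rule. The interquartile range of the log2 fold changes was 1.27 for the alpha V segments and 0.21 for the beta V segments. Without the limit of 30 counts it was 1.43 for the alpha, 0.21 for the beta, and 1.17 for the 7 gamma V segments. Only 2 gamma V segments had at least 30 counts. The alpha V segments had at most 384 counts each and 19 of the 24 beta V segments had 228 or more. The part of counts in the gap between alpha and beta was not tested. Among all 6553 genes with 30 to 384 counts, the interquartile range was 0.70, 10.7% did not overlap between genotypes, and 4.62% had an unadjusted p under 0.05. Of the 70 alpha V segments, 21 did not overlap and 13 had such a p. The median log2 fold change was -0.15 over the 112 alpha V segments and 0.16 over the 24 beta V segments, beside 0.014 over all genes tested. Neither sign held with each mouse left out, as the alpha V median was 0.13 without Ebf2+/+ replicate 2 and 0.094 without Ebf2 E165X/+ replicate 3, and the beta V median was -0.018 without Ebf2+/+ replicate 1. The summed alpha V level was nearly the same in both genotypes, 10.5 ± 1.68 CPM in Ebf2+/+ and 10.4 ± 1.84 CPM in Ebf2 E165X/+ mice (SD, n = 3 each), so segments that were higher offset those that were lower. The ratio of alpha V to Trac counts was 0.286 ± 0.0255 in Ebf2+/+ and 0.349 ± 0.0705 in Ebf2 E165X/+ mice (SD, n = 3 each), with overlap.

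**Figure D3:**
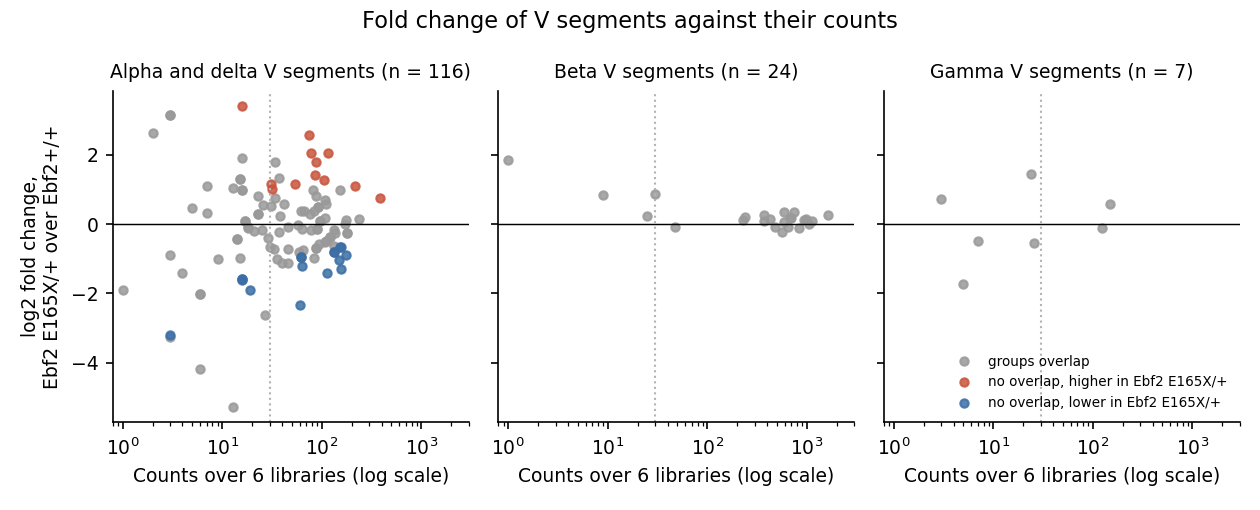
Log2 fold change of Ebf2 E165X/+ over Ebf2+/+ (vertical axis) against counts summed over 6 libraries (horizontal log axis) for the V segments of each locus. Each point is a segment, colored where the genotypes do not overlap, and the dotted line is at 30 counts. The alpha and delta segments spread to both sides of 0, while the beta segments with many counts lie close to it.

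The 10 members with the smallest unadjusted p among those without overlap were all alpha V segments, which encode the part of the alpha chain that contacts the antigen-presenting molecule. None passed the adjusted test in edgeR (adjusted p = 0.497 to 0.783). Of these, 3 were lower in the Ebf2 E165X/+ mice. Trav6n-6 had 16, 11, and 23 counts in Ebf2+/+ and 2, 4, and 4 in Ebf2 E165X/+ mice (log2 fold change -2.35, SE 0.47). Trav14-2 had 24, 30, and 26 against 10, 12, and 10 counts (-1.40, SE 0.32). Trav12-2 had 25, 43, and 42 against 17, 17, and 13 counts (-1.31, SE 0.36). The near copies shown above overlapped between genotypes. Trav6-6 and Trav6d-6, with identical sequences and identical counts, had 12, 18, and 15 counts in Ebf2+/+ and 17, 20, and 14 in Ebf2 E165X/+ mice. Trav14d-2 and Trav14n-2 had 15, 12, and 26 against 12, 16, and 6 counts. Trav12d-2 and Trav12n-2, near copies of Trav12-2, each had 10, 9, and 18 against 16, 24, and 15 counts with overlap. Their log2 fold change was 0.50 (SE 0.39), and 0.28 to 0.79 with 1 mouse left out.

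The other 7 of the 10 were higher in the Ebf2 E165X/+ mice. Trav13-2 had 1, 4, and 5 counts in Ebf2+/+ and 22, 33, and 10 in Ebf2 E165X/+ mice (log2 fold change 2.58, SE 0.67), the largest value of the 10. Trav8d-1 had 6, 9, and 6 against 17, 41, and 38 counts (2.06, SE 0.45). Trav16d-dv11 had 6, 6, and 2 against 19, 24, and 21 counts (2.07, SE 0.48). For each of these 3 segments the lowest Ebf2 E165X/+ library held at least 10 counts and no Ebf2+/+ library more than 9. Near copies of these segments had other values. Trav13d-2 and Trav13n-2, identical to each other, had 4, 4, and 4 against 2, 1, and 1 counts, which is lower without overlap (-1.57, SE 0.73). Trav8-1 had 0, 13, and 6 against 2, 10, and 6 counts (-0.21, SE 1.06), and Trav16 had 17, 31, and 34 against 24, 31, and 33 (0.0091, SE 0.35), both with overlap. Trav16n, in the same family as Trav16d-dv11, had 30, 17, and 19 against 47, 65, and 37 counts (1.10, SE 0.35). Trav7d-4 had 8, 8, and 6 against 15, 22, and 27 counts (1.43, SE 0.38), and Trav7-4, 99.6% identical to it, had 34, 37, and 38 against 35, 52, and 42 counts with overlap (0.15, SE 0.26). With 1 mouse left out, the value of Trav8-1 ran from -0.82 to 0.95, that of Trav16 from -0.27 to 0.18, and that of Trav7-4 from 0.0086 to 0.25. Trav15d-1-dv6d-1 had 13, 5, and 12 against 26, 21, and 29 counts (1.27, SE 0.40). Trav3-3, the alpha V segment with the most counts, had 42, 44, and 51 against 71, 98, and 78 counts (0.77, SE 0.24). Its near copies Trav3d-3 and Trav3n-3, identical to each other, had 30, 28, and 25 against 12, 25, and 13 counts. They were thus lower without overlap (-0.82, SE 0.37). All 10 kept their direction when any 1 mouse was left out, which, since the groups did not overlap, their choice already fixed.

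**Figure D4:**
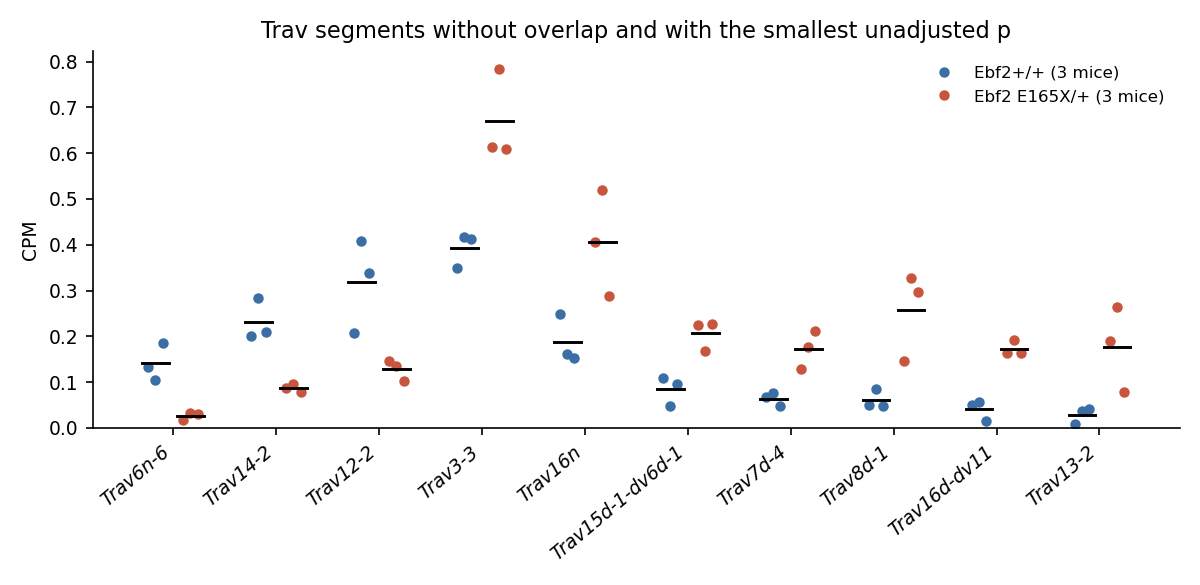
CPM (vertical axis) of the 10 alpha V segments without overlap between genotypes and with the smallest unadjusted p, ordered by fold change. Points are mice and black bars are means of 3 mice. The 3 segments at the left are lower and the 7 at the right are higher in every Ebf2 E165X/+ mouse than in every Ebf2+/+ mouse.

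The most counted V segments of the beta locus, which encode the antigen-contacting part of the beta chain, were chosen by their counts and not, like the 10 alpha V segments above, by p. Trbv3 had 202, 224, and 298 counts in Ebf2+/+ and 274, 344, and 309 in Ebf2 E165X/+ mice (log2 fold change 0.28, SE 0.20, and 0.13 without Ebf2+/+ replicate 1). Trbv1 had 160, 190, and 184 against 172, 250, and 181 counts (0.086, SE 0.22). Trbv13-2 had 154, 184, and 168 against 148, 223, and 169 counts (0.00066, SE 0.23). All 3 overlapped between genotypes. Trbv19 and Trbv16 had log2 fold changes of 0.15 and 0.12, with SE 0.24 and 0.25. Over all 24 beta V segments, 19 had a higher and 5 a lower mean in the knock-in mice, and no segment was without overlap, beside 5.09% higher and 5.75% lower of all genes tested. The 19 segments with 228 or more counts ran from -0.23 (Trbv12-2) to 0.35 (Trbv5), values that lay between -0.51 and -0.066 and between 0.16 and 0.55 with 1 mouse left out. The edgeR adjusted p of the beta members was between 0.783 and 0.999. The ratio of beta V to beta constant counts was 0.313 ± 0.0306 in Ebf2+/+ and 0.288 ± 0.0317 in Ebf2 E165X/+ mice (SD, n = 3 each), with overlap.

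V segments of the gamma and delta chains were few and low. Trgv4, the most counted, had 19, 14, and 25 counts in Ebf2+/+ and 38, 25, and 27 in Ebf2 E165X/+ mice, and Trgv2 had 15, 18, and 30 against 25, 20, and 16, both with overlap. Trgv1, Trgv6, and Trgv3 held at most 13 counts in a library and also overlapped. The 4 delta V segments can be used by gamma-delta T cells. Of these, Trdv2-2 had 3, 6, and 7 against 20, 10, and 8 counts and Trdv1 had 3, 4, and 3 against 7, 9, and 6. Both were higher without overlap (log2 fold changes 1.17 and 1.03, SE 0.57 and 0.53). Among all genes tested, 5.09% were higher without overlap, as were 6.35% of those with at least 30 counts. Without Ebf2 E165X/+ replicate 1, which held 20 of its counts, Trdv2-2 was at 0.62. Trdv4 had 23, 16, and 41 against 17, 23, and 14 counts, and Trdv5 had 6, 10, and 15 against 3, 4, and 8, both with lower means and with overlap. The means of the delta segments thus differed in both directions, and none had an unadjusted p under 0.05 in edgeR. The summed delta V level was 0.388 ± 0.127 CPM in Ebf2+/+ and 0.352 ± 0.0640 CPM in Ebf2 E165X/+ mice (SD, n = 3 each).

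The alpha V segments of the mouse exist in near copies, marked by the letters d and n in their names, which lie in separate stretches of the locus. Segments named with d (36), with n (29), and with neither letter (47) had summed log2 ratios of Ebf2 E165X/+ to Ebf2+/+ of 0.20, -0.10, and -0.09. Each sign turned with 1 mouse left out, to -0.018 without Ebf2 E165X/+ replicate 2, 0.045 without Ebf2 E165X/+ replicate 3, and 0.070 without Ebf2+/+ replicate 2. The numbers without overlap were 5 higher and 5 lower, 2 higher and 5 lower, and 3 higher and 7 lower, beside 5.09% higher and 5.75% lower of all genes tested. In 14 pairs of alpha V segments with at least 5 counts each, the sequences were identical over the shorter transcript. The counts of each pair were also identical in all 6 libraries. Trav14d-1 and Trav14n-1, for example, each had 26, 31, and 38 counts in Ebf2+/+ and 30, 24, and 30 in Ebf2 E165X/+ mice. Such a pair is a single measurement under 2 names. Of 6 further pairs of closest segments at 100% identity, 5 had different counts, such as Trav12d-3 with 10, 0, and 14 against 1, 11, and 0 and Trav12n-3 with 0, 23, and 0 against 0, 0, and 4. The remaining pair, Trav9d-2 and Trav9n-2, had identical counts below that minimum, 0, 0, and 0 against 1, 2, and 0 each. Trav15d-1-dv6d-1, among the 10 segments above, was identical over the shorter transcript to Trav15n-1, which had 0, 3, and 0 against 0, 0, and 0 counts. Of the 27 alpha V segments without overlap, 6 belonged to the 14 pairs with identical counts, all of them lower in Ebf2 E165X/+ mice.

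**Figure D5:**
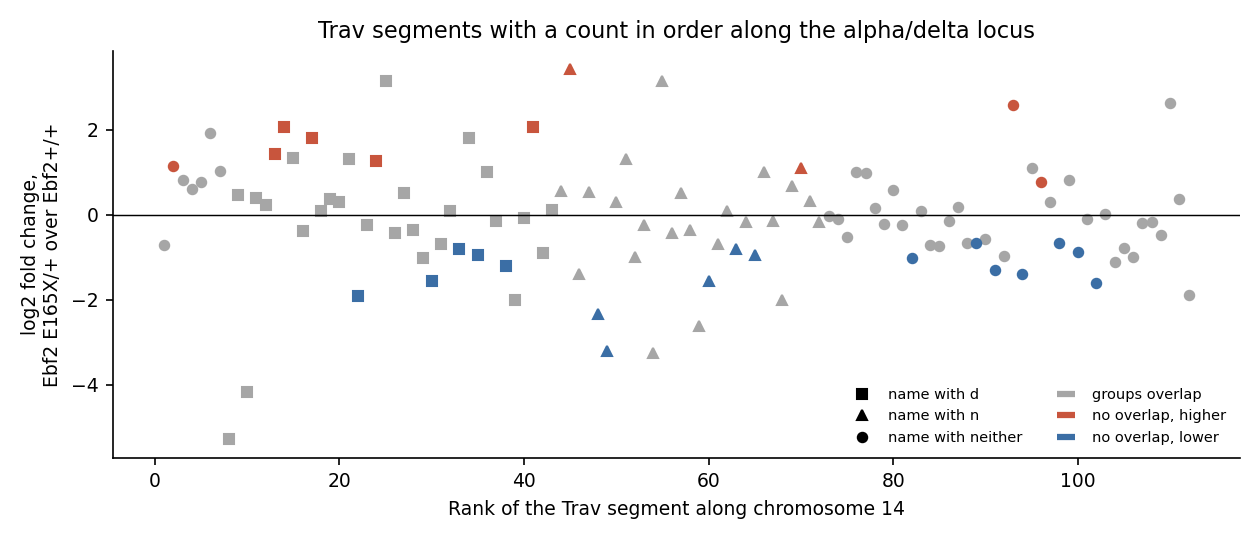
Log2 fold change of Ebf2 E165X/+ over Ebf2+/+ (vertical axis) of the 112 Trav segments with a count, in order along chromosome 14 (horizontal axis, rank). Symbols show the letter in the name, and color shows segments whose genotypes do not overlap. Segments higher and lower in Ebf2 E165X/+ mice are interspersed along the locus.

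Summing the alpha V segments by family number kept reads shared between copies together. Of 21 families, 4 were higher and 1 lower without overlap, where 5.09% and 5.75% of all genes tested were. The 19 families with counts in both genotypes had a median log2 ratio of mean CPM of 0.035, from -0.73 (Trav1) to 1.17 (Trav2). The Trav16 family (3 segments) had 53, 54, and 55 counts in Ebf2+/+ and 90, 120, and 91 in Ebf2 E165X/+ mice, a log2 ratio of 0.81. The Trav8 family (5 segments) had 27, 40, and 34 against 44, 91, and 59 counts (0.84), and the Trav15 family (6 segments) had 21, 21, and 27 against 34, 43, and 34 counts (0.61). The family of Trav2 alone had 4, 4, and 1 against 6, 9, and 7 counts (1.17). The Trav4 family (8 segments) went the other way, with 95, 88, and 86 against 61, 67, and 55 counts (-0.64). The Trav6 and Trav14 families, the homes of Trav6n-6 and Trav14-2, had log2 ratios of -0.27 and -0.36 with overlap, and the Trav13 family, the home of Trav13-2, had one of -0.088 with overlap, opposite in sign to its segment. The Trav3, Trav7, and Trav12 families, the homes of Trav3-3, Trav7d-4, and Trav12-2, had log2 ratios of 0.12, 0.27, and -0.50, all with overlap.

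Other T cell genes had higher means in Ebf2 E165X/+ mice. Their log2 fold changes were smaller than those of the 10 alpha V segments above. Those segments were chosen for no overlap and a small p, so the difference in size decides nothing. All 8 CD3 and coreceptor genes had higher means in Ebf2 E165X/+ mice (log2 fold changes 0.096 to 0.44, median 0.21), and none passed the adjusted test in edgeR. Their summed level was 234, 302, and 308 CPM in Ebf2+/+ and 321, 349, and 312 CPM in Ebf2 E165X/+ mice, the lowest value being Ebf2+/+ replicate 1. Without that mouse, 7 of the 8 had higher means, with a median of 0.059, and Cd247 was at -0.018, and without Ebf2 E165X/+ replicate 2 the median was 0.12. Cd28, the costimulatory receptor, had 2162, 2618, and 3326 against 3499, 3735, and 4435 counts (0.44, SE 0.15, edgeR unadjusted p = 0.0194, adjusted p = 0.783, and 0.28 without Ebf2+/+ replicate 1). All 10 genes of proximal receptor signaling (median 0.26) and all 12 T cell identity genes (median 0.24) also had higher means, and without Ebf2+/+ replicate 1 these medians were 0.12 and 0.081. Il7r, the receptor that maintains naive T cells, was at 0.31 (SE 0.12, edgeR unadjusted p = 0.0398, adjusted p = 0.783), and at 0.16 without Ebf2+/+ replicate 1. The markers of other cells in a lymph node had the same sign, with 10 of 10 B cell genes (median 0.31), 8 of 8 natural killer cell genes (0.25), and 6 of 6 tested stromal and high endothelial genes (0.22), as did 6 of 6 macrophage genes (0.11). Without Ebf2+/+ replicate 1, these were 10 of 10 B cell genes (median 0.11), 6 of 8 natural killer cell genes (0.15), and 5 of 6 stromal genes (0.20). Without Ebf2+/+ replicate 2, 5 of 6 macrophage genes had lower means (median -0.027). The 8 muscle genes had a median of 1.98, which rested on Ebf2 E165X/+ replicate 3, as without that mouse all 8 had lower means (median -1.04). All 8 adipocyte genes had lower means (median -0.28), and 7 of 8 without Ebf2 E165X/+ replicate 3 (-0.17). No gene of these lists passed the adjusted test in edgeR or DESeq2, and their part in the level of the T cell receptor genes was not tested. The Trac difference was opposite in sign to those of these T cell genes.

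Genes of recombination were at low counts. Ptcra, the partner of the beta chain in thymocytes, had at most 2 counts in a library. Rag1 had 33, 65, and 141 counts in Ebf2+/+ and 73, 146, and 117 in Ebf2 E165X/+ mice, Rag2 had 1, 9, and 9 against 12, 18, and 22 counts, higher without overlap (log2 fold change 1.33, SE 0.66, edgeR adjusted p = 0.783, and 0.81 without Ebf2+/+ replicate 1), and Dntt, which adds bases at the joints, had a log2 fold change of -0.04 (SE 0.22, from -0.15 to 0.088 with 1 mouse left out) with overlap. Of 7 genes of gamma-delta T cells, 5 had higher and 2 lower means, and Il17a, a cytokine of these cells, had at most 3 counts in a library.

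Genes of chromosome 14 next to the alpha/delta locus were examined in the same fit. Of 19 genes before the locus, 7 had higher and 12 lower means, 3 had an unadjusted p under 0.05, and 4 were lower without overlap. Of 13 tested genes after it, 4 had higher and 9 lower means, 3 had an unadjusted p under 0.05, and 1 was higher and 3 lower without overlap. These counts stand beside 4.77% of all genes for the p and 5.09% higher and 5.75% lower without overlap. Slc7a7, an amino acid transporter gene 0.145 Mb past the locus, had 1351, 1245, and 1582 counts in Ebf2+/+ and 2008, 2092, and 2079 in Ebf2 E165X/+ mice (log2 fold change 0.49, SE 0.093, edgeR adjusted p = 0.474), without overlap. Psmb5, a proteasome subunit gene 0.390 Mb past the locus, had 8756, 6153, and 6902 against 4738, 5806, and 6655 counts (-0.42, SE 0.13, edgeR adjusted p = 0.783). Hnrnpc, which encodes an RNA-binding protein and lies 0.324 Mb before the locus, had 17111, 15099, and 17861 against 13191, 14909, and 15024 counts (-0.29, SE 0.069, edgeR adjusted p = 0.742). Dad1, which encodes a subunit of the enzyme that glycosylates proteins and lies 0.0113 Mb past the locus, had 7024, 5615, and 5951 against 5183, 5889, and 6203 counts with overlap (-0.19, SE 0.087). No neighbor passed the adjusted test in edgeR, while DESeq2 gave Slc7a7 an adjusted p of 0.000714 and Hnrnpc one of 0.00594, both below the 1.5-fold threshold of a call. Only 22 members, and no alpha V segment, received an adjusted p from DESeq2, of which the smallest was 0.541, for Trac. Whether the allele, other sequence carried with it on chromosome 14, or the composition of the tissue goes with the values of the alpha/delta members cannot be told apart in this design.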

How the data were processed

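RNA from IWAT of 6 mice was sequenced by the authors. The submitters' processing notes name cutadapt 4.8, FastQC 0.11.8, STAR 2.7.8a, RSEM 1.3.3, MultiQC 1.20, and GRCm38, the study's methods name ENSEMBL 109 annotation, and the library kit is given as an NEB kit in the labels and as QuantSeq 3′ mRNA in the methods. The deposited values are expected counts per gene from the authors' counting, which divides reads among similar genes. All 332946 deposited values were whole numbers, so rounding changed none. Whether strand was used in counting is not given in the sources used here.

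Genes that reached 1 count in any library were fitted together in edgeR 4.0.16 (R 4.3.3; TMM factors; quasi-likelihood test; genotype only), with Benjamini-Hochberg adjustment over 32664 genes, and calls required an adjusted p under 0.05 and a linear fold above 1.5. CPM values used TMM-scaled library sizes. DESeq2 1.42.0 and limma-voom (limma 3.58.1) were alternatives. Counts were simulated for 31660 genes, with 200 changed between genotypes by a log2 fold of 2. The changed genes were drawn from those averaging at least 10 counts per library. In this simulation, edgeR recovered 145 and called 23 unchanged genes, DESeq2 recovered 164 and called 72, and limma-voom recovered 126 and called 6. Recovery of smaller changes, or of changed genes with fewer counts, was not simulated. The Trac ratio was tested with an exact permutation test. Python 3.11.15, pandas 2.3.3, numpy 2.4.6, edlib 1.3.9.post1 (sequence alignment), and matplotlib 3.10.9 were used. All 266 T cell receptor identifiers were matched to GENCODE M21, and identity was computed over the shorter transcript.

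The genes named were every constant gene, the 5 V segments with most counts per chain, the 10 members with the smallest unadjusted p among those without overlap, and genes of marker lists (CD3 and coreceptors, signaling, T cell identity, recombination, gamma-delta T cell, natural killer cell, B cell, lymph node stroma, macrophage, adipocyte, skeletal muscle, and chromosome 14 neighbors). Near copies and V families were named beside them after their values were seen. The members and lists were chosen with earlier results of these data known, so their counts are descriptions. Tcrg-C1, Tcrg-C2, Tcrg-C4, Fdcsp, and Rbm23 were listed but not tested. Another listed gene is not reported here. Mice of a genotype are the replicates. Even with 106820505 counts or more per library, counting error depends on the counts of the gene. It is small for Trac, Trbc1, and Trbc2. It is larger for Trdc, Trgc1, Trgc2, and Trgc4, which had 70 to 421 counts per library. It is large for Trgc3, with 9 counts in all, and for V segments with few counts.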

Additional observations from a re-analysis of the deposited data

How the results depend on the processing

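No T cell receptor gene was called under any tool, normalization, filter, replicate block, or omission of a mouse. Between alternatives, 16 of 118 members of the alpha/delta locus at an unadjusted p under 0.05 became 9 of 26 where every library had to hold 10 counts (34.6%, beside 6.61% of the 18905 genes in that fit), and ran from 12 to 20 with 1 mouse left out. For the beta and gamma loci the number was 0, but 1 with limma-voom, and 0 to 2 with 1 mouse left out (2 without Ebf2+/+ replicate 3). The number of alpha/delta members without overlap was 29, and 26 with unscaled library totals and 39 relative to CD3 genes, both chosen after seeing the data. For the beta and gamma loci it was 3, and 2 and 1 under these scalings. Of all genes tested, 5.09% were higher and 5.75% lower without overlap, 6.72% and 3.77% with unscaled totals, and 1.38% and 8.31% relative to CD3 genes. Without Ebf2 E165X/+ replicate 3 these numbers were 43 and 5, while 21.2% of all genes tested did not overlap in that smaller comparison. The median log2 fold change of the alpha/delta members had no stable sign. It was -0.15, but 0.034 when alpha V segments were summed by family, with 0.02 CPM added to the means, and -0.33 to 0.11 with 1 mouse left out, with positive values without Ebf2+/+ replicate 2 (0.11) and without Ebf2 E165X/+ replicate 3 (0.094). The causes of these shifts were not tested. The log2 difference of Trac to beta constant genes was -0.54 on the log and on the linear scale. Summed levels per locus kept their sign under all alternatives, and the alpha/delta sum ran from -0.38 (relative to CD3 genes) to -0.12 (without Ebf2+/+ replicate 2).

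Among named segments, the sign changed only for values near 0 or with few counts. Trbv13-2 (0.00066) was at -0.0089 with DESeq2 size factors, -0.0067 with DESeq2 with and without its filter, -0.022 where every library had to hold 10 counts, -0.0023 with filterByExpr, and -0.17 to 0.14 with 1 mouse left out. In fits that left out 1 mouse, the lowest and highest values were -0.028 and 0.25 for Trgc2, -0.087 and 0.20 for Trbv1, -0.028 and 0.27 for Trbv19, -0.11 and 0.24 for Trbv16, -0.33 and 0.15 for Trgv2, -0.86 and 0.057 for Trgv1, and -1.30 and 0.82 for Trgv3. The labels do not say whether their replicate numbers pair the mice. Deviations of same-numbered mice correlated at 0.15, -0.28, and -0.16 over 18905 genes. These values cannot decide whether mice were paired, because the libraries also differed in cell content. With the number as a replicate block, Trbv13-2 was at -0.0032, 16 alpha/delta members had an unadjusted p under 0.05, and no call changed. Depth limits the members with under 30 counts, for which small differences were not detectable.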
